A study of Homo sapiens with 16 samples.

Results

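The ATF4 stress genes described here were ATF4, DDIT3, TRIB3, CHAC1, ATF3, SESN2, CEBPB, CEBPG, STC2 and NUPR1, genes around the transcription factor ATF4 that were selected on measured values: CHAC1 had been seen to be much lower in MM.1S cells given both inhibitors. Their probes were found by gene name, which gave 14 probes of the 50599 on the array, for 10 genes of 32080 named symbols. Because the measured fall of CHAC1 in MM.1S cells selected the group, the values of the 10 genes in MM.1S cells are a description. The limma calls counted on them below are not read as a test. Their values in RPMI-8226 cells carry the adjusted p of limma, fitted across all probes. The 10 genes were chosen with earlier results of these data known, so these p-values are no independent test either.

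ATF4 is the transcription factor made when kinases phosphorylate the initiation factor eIF2, which slows most translation but lets the ATF4 mRNA be read. With C/EBP partners it drives genes for amino acid import and synthesis and tRNA charging. Under lasting stress it also drives DDIT3 (CHOP), and through it TRIB3 and CHAC1. Myeloma cells secrete large amounts of immunoglobulin, and the endoplasmic reticulum kinase PERK is one of the inputs to this pathway.

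Both RPMI-8226 and MM.1S are long-established cultures derived from human myeloma. Cells of each line received the solvent DMSO, GSK126 at 1 µM, UNC0638 at 1 µM, or GSK126 + UNC0638 at 1 µM each, with 6 days of inhibitor treatment and 2 replicates per group, so that 8 groups gave 16 arrays. GSK126 inhibits EZH2, which methylates H3K27, and UNC0638 inhibits G9a, which methylates H3K9. The 2 lines were the only models, each in culture medium with serum, and the arrays of each line shared 1 slide of their own, so that slide and line cannot be told apart. The plasma cell genes SDC1, CD38, TNFRSF17, SLAMF7, PRDM1, IRF4, XBP1 and MZB1 were well above background on 8 of 8 arrays of each line, and the B cell gene PAX5 on 0. CD3D and CD14 were also well above background on 8 of 8 arrays in both lines, EPCAM and CSF1R in RPMI-8226 cells and PECAM1 in MM.1S cells, so the lines carry some transcripts named as markers of other cells.

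A level here is log2 intensity of a spot relative to the 75th percentile on that array, so that 0 is the brightness that 75% of the spots do not reach. Levels of different probes are not comparable, since each probe binds with its own strength. The share of spots well above background was 46.5% to 52.8% per array. The median log2 fold change over all probes with both inhibitors was -0.13 for RPMI-8226 and -0.12 for MM.1S. A percentile taken over the probes detected on all 16 arrays moved that median up by 0.13 and 0.19, and the share of higher probes among the calls rose from 58.2% to 75.2% and from 41.2% to 57.9%. For the single agents in MM.1S cells it was 43.7% and became 59.7% with UNC0638. With GSK126 it was 68.5%, against 83.4% with that percentile and 54.9% with normexp. None of the changes called here turned its direction under these scalings. Among member changes that were not called, the RPMI-8226 combination values of CEBPB, CEBPG and ATF3 probe A_33_P3214096 moved above 0 with that percentile, and that of ATF4 with quantile normalization. With normexp the GSK126 value of A_33_P3214096 did so too.

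Promoter windows of 300 bases around annotated start sites were found in RefSeq (GRCh38.p14) for 9 of the 10 genes, in 16 windows. They were searched on both strands for TGATGNAA, the joint C/EBP-ATF element with 1 base free, and for its usual form TGATGCAA, which is contained in the first. TGATGNAA was in a window of 3 of the 9 genes, against 4.46% of all 27305 genes with a window, and TGATGCAA in 2, against 1.08%. The cyclic AMP response element TGACGTCA and the ER stress element, searched by its consensus letters, were in 0 of the 9, against 2.25% and 0.0916% of all genes. The 3 windows with a match are shown because they hold the letters that ATF4 and its partners are known to bind, with the match in capitals. The match begins 209 bases before the start in CHAC1 (read on the opposite strand), 42 bases before it in CEBPG and 191 bases before it in ATF3.
CHAC1, chr15:40953221-40953520, plus strand: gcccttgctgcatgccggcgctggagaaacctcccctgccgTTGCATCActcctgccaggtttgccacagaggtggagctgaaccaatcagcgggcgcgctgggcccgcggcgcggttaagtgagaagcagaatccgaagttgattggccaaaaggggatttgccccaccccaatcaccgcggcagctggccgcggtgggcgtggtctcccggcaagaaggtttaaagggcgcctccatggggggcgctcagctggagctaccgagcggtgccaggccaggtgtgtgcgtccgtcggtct
CEBPG, chr19:33373863-33374162, plus strand: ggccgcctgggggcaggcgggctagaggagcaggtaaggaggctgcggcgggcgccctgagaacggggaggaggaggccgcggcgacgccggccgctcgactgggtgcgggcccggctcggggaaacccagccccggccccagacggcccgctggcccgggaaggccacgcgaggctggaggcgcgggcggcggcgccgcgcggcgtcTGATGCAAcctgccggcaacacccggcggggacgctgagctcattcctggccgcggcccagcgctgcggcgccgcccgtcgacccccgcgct
ATF3, chr1:212565157-212565456, plus strand: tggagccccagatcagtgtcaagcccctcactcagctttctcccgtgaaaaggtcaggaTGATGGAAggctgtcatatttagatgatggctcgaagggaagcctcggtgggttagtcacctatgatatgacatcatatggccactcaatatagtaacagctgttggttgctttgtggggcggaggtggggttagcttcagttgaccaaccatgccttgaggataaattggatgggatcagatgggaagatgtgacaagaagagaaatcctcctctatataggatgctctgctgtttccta
A match in these letters is a description and no sign of binding. The CHAC1 and CEBPG matches carry the usual form, and the ATF3 match has another base at the free position.

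With both inhibitors in MM.1S cells, 13 of the 14 probes lay below DMSO, each of the 13 with both treated arrays below both DMSO arrays, and the median log2 fold change of the 14 was -0.89. The remaining probe, STC2, was not well above background on any MM.1S array, and neither was NUPR1, which is counted among the 13. limma called 11 of the 12 probes kept in MM.1S cells lower and 0 higher with the combination, where 31.7% of all probes tested were called lower and 22.2% higher. With UNC0638 alone 10 were called lower, beside 16.5% of all probes (12.8% higher), and with GSK126 alone 5, beside 2.39% (5.19% higher). These calls describe the measurement that led to the choice, and nothing is read from them. The same holds for the 13 probes without overlap, for which no share over all probes is given here. RNA came from whole cultures, so fewer cells with a transcript and less of it per cell cannot be told apart.

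In RPMI-8226 cells CHAC1 (A_33_P3376971) and STC2 were called lower with both inhibitors. ATF4, TRIB3 and SESN2 had both treated arrays below DMSO, and 3 of 4 ATF3 probes and NUPR1 had both above it. None of these passed the test. The share of all probes separated in this way is not given here, so nothing is read from that split. limma called 2 of the 13 probes tested lower and 0 higher (4 higher at an unadjusted p under 0.05), where 5.17% of all probes were called lower and 7.20% higher. Single agents gave 0 calls among the 13 probes. At an unadjusted p under 0.05 there were 2 lower and 1 higher with GSK126, and 3 lower and 0 higher with UNC0638. Over all probes GSK126 gave 0.0517% lower and 0.547% higher, and UNC0638 0.0776% and 0.556%. With 2 arrays a group these changes cannot be taken as absent.

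**Figure D1:**
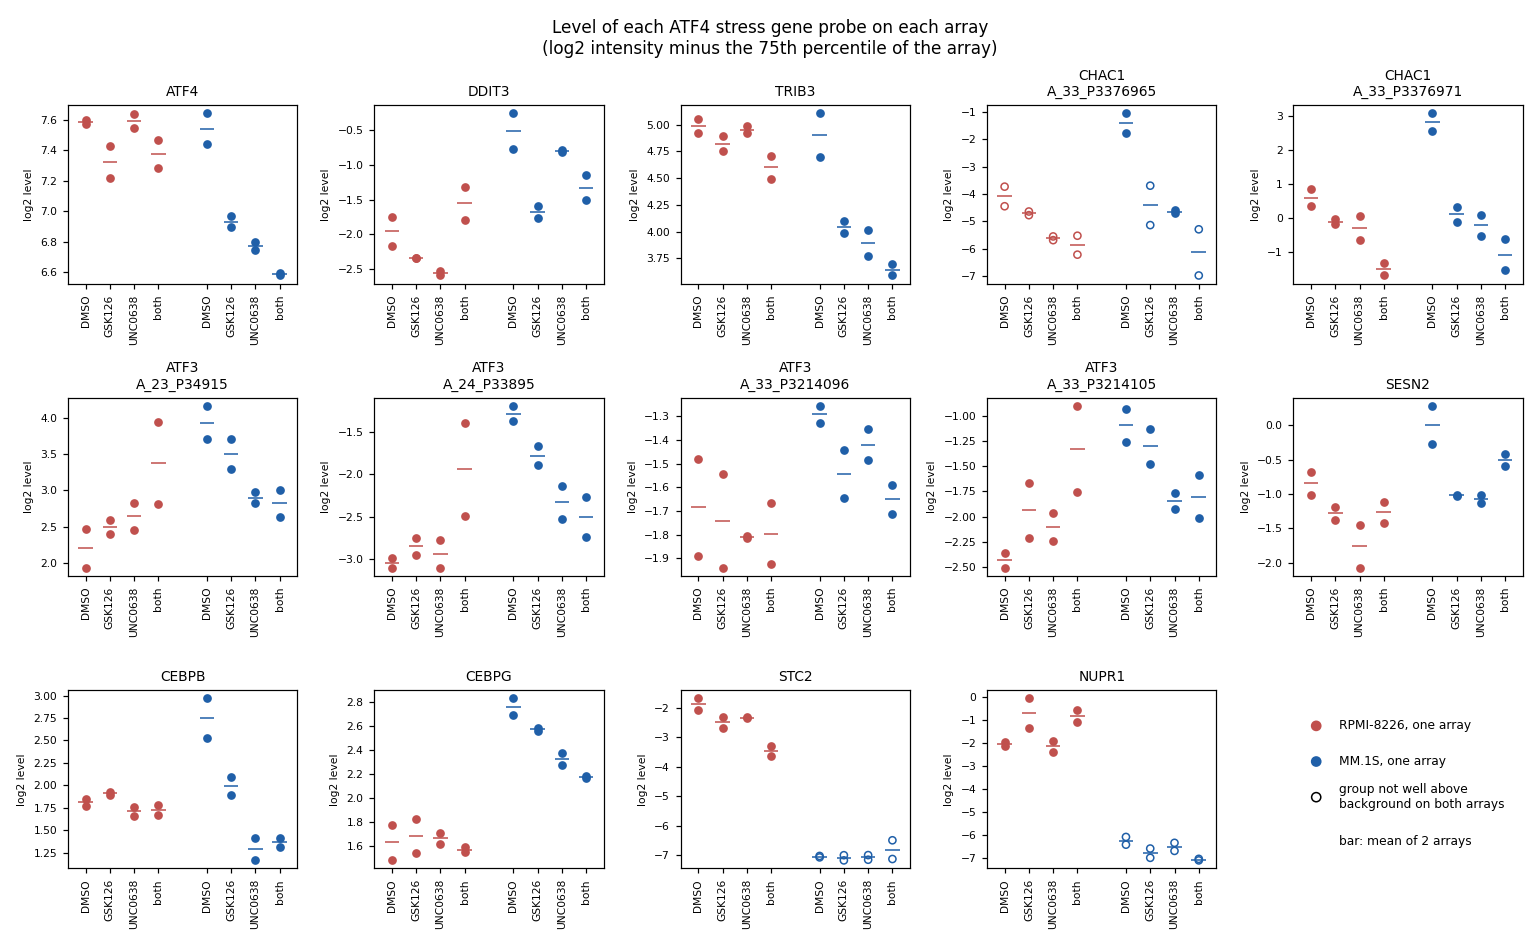
Level of each of the 14 probes on each array, as log2 intensity minus the 75th percentile of the array, for RPMI-8226 (red) and MM.1S (blue) under DMSO, GSK126, UNC0638 and both inhibitors; points are arrays, bars are means of 2, and open points mark groups not well above background on both arrays. CHAC1, TRIB3 and ATF4 step down from DMSO in MM.1S cells, while 3 of 4 ATF3 probes and NUPR1 sit above DMSO with both inhibitors in RPMI-8226 cells.

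ATF4 itself heads the group. In MM.1S cells its level was 7.44 and 7.64 on the 2 DMSO arrays, 6.90 and 6.97 with GSK126, 6.80 and 6.75 with UNC0638, and 6.60 and 6.58 with both. The treated arrays were all below DMSO, by a log2 fold change of -0.61, -0.77 and -0.95. In RPMI-8226 cells it was 7.59 and 7.57 with DMSO and 7.28 and 7.46 with both inhibitors. That difference of -0.21 (SE 0.15, limma adjusted p = 0.365) did not pass the test and turned above 0 with quantile normalization, and with UNC0638 alone the arrays overlapped DMSO. The array measures ATF4 mRNA and gives no value for its translation, the step at which the pathway is mainly set.

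The partners of ATF4 were lower in MM.1S cells, and near DMSO in the other line. CEBPB, a C/EBP factor that pairs with ATF4, had in MM.1S cells levels of 2.53 and 2.97 with DMSO, 1.89 and 2.09 with GSK126, 1.41 and 1.16 with UNC0638, and 1.42 and 1.32 with both. UNC0638 alone, at a log2 fold change of -1.46, was as low as the combination at -1.38, and GSK126 stood between at -0.76. In RPMI-8226 cells CEBPB differed from DMSO by -0.09 with both inhibitors (SE 0.13, limma adjusted p = 0.690). CEBPG, a smaller C/EBP factor that also pairs with ATF4, went from 2.69 and 2.83 to 2.18 and 2.17 with both inhibitors in MM.1S cells, which is -0.58 on the log2 scale, and GSK126 and UNC0638 gave -0.19 and -0.43. Its RPMI-8226 arrays overlapped DMSO under every treatment, and the combination differed by -0.06 (SE 0.17, limma adjusted p = 0.835).

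DDIT3 encodes the stress factor CHOP. Its MM.1S levels were -0.77 and -0.26 with DMSO, -1.76 and -1.59 with GSK126, -0.80 and -0.82 with UNC0638, and -1.51 and -1.15 with both. GSK126 alone gave the lowest arrays, with a log2 fold change of -1.16, against -0.81 for the combination and -0.29 for UNC0638, whose arrays lay just below the lower DMSO array. In RPMI-8226 cells DDIT3 was -2.16 and -1.75 with DMSO, -2.34 and -2.34 with GSK126, -2.53 and -2.59 with UNC0638, and -1.32 and -1.79 with both. The single agents were below DMSO and the combination overlapped it, at -0.38 (limma adjusted p = 0.585), -0.60 (limma adjusted p = 0.418) and 0.40 (SE 0.21, limma adjusted p = 0.242).

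ATF3, an ATF factor induced by many stresses, had 4 probes that did not give 1 picture. The probe A_23_P34915 read in RPMI-8226 cells 2.47 and 1.93 with DMSO, 2.60 and 2.39 with GSK126, 2.83 and 2.45 with UNC0638, and 3.94 and 2.82 with both. Both combination arrays were above DMSO, 1 of them far above the other, and the log2 fold change of 1.18 (SE 0.38, limma adjusted p = 0.0923) did not pass the test. The probes A_24_P33895 and A_33_P3214105 gave 1.11 (limma adjusted p = 0.0829) and 1.10 (limma adjusted p = 0.0689), and A_33_P3214096 gave -0.11 (limma adjusted p = 0.752). In MM.1S cells A_23_P34915 read 3.70 and 4.17 with DMSO and 3.01 and 2.64 with both inhibitors. The 4 MM.1S log2 fold changes were -1.11, -1.22, -0.71 and -0.36 in the order of the probes above, and UNC0638 alone gave -1.04 at A_23_P34915.

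The replicate numbers of the RPMI-8226 arrays were taken to pair them, and a fit with the replicate number as a block moved these borderline genes past the threshold. With the block, limma called the 3 ATF3 probes higher (adjusted p = 0.0206, 0.0422 and 0.0287) and NUPR1 as well (adjusted p = 0.0276), at unchanged fold changes, which gave 4 higher and 2 lower of 13. Without the second combination array, 3 ATF3 probes were also called higher by limma, and without the first, 0 were. With all arrays kept, limma also called A_23_P34915 higher with normexp. A trended prior, which lets the prior variance depend on intensity, called A_23_P34915 and A_33_P3214105 higher. Whether ATF3 is called thus depends on the processing and on the arrays kept.

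TRIB3, a pseudokinase induced by ATF4 and CHOP that feeds back on the pathway, was the member whose profile most resembled CHAC1. Its MM.1S levels were 4.70 and 5.11 with DMSO, 3.99 and 4.10 with GSK126, 4.01 and 3.77 with UNC0638, and 3.70 and 3.59 with both. No treated array reached DMSO, and the log2 fold changes were -0.85, -1.01 and -1.26. In RPMI-8226 cells it was 5.05 and 4.93 with DMSO and 4.50 and 4.71 with both inhibitors, all treated arrays lower, with a difference of -0.39 (SE 0.15, limma adjusted p = 0.128). UNC0638 alone left TRIB3 at 4.98 and 4.92 there, with the arrays overlapping DMSO.

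CHAC1, the enzyme that cleaves glutathione and a late target of ATF4 and CHOP, had the largest difference of the 10 genes with both inhibitors in either line, and with each single agent in MM.1S cells. Its probe A_33_P3376971, on chromosome 15 from 41248631 to 41248690 (GRCh37), read in MM.1S cells 2.56 and 3.08 with DMSO, -0.11 and 0.31 with GSK126, 0.09 and -0.52 with UNC0638, and -0.64 and -1.53 with both. In linear terms the spot of CHAC1 went from intensities of 2614 and 3656 with DMSO to 293 and 151 with both inhibitors. The log2 fold changes were -2.72, -3.04 and -3.91, and both combination arrays were below all single-agent arrays. The other probe, A_33_P3376965 from 41247814 to 41247873, was not well above background on either combination array, where CHAC1 was at least 10.9-fold lower than DMSO, its bright group read at -1.77 and -1.05. With GSK126 1 of 2 arrays of that probe was well above background, and with UNC0638 both were, at log2 fold changes of -3.00 and -3.23.

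In RPMI-8226 cells CHAC1 had the same direction, in values that are no independent test, since the members were chosen with earlier results of these data known. In RPMI-8226 cells A_33_P3376971 read 0.84 and 0.34 with DMSO, -0.03 and -0.19 with GSK126, 0.07 and -0.65 with UNC0638, and -1.32 and -1.70 with both. Every treated array was below both DMSO arrays and both combination arrays were below the single-agent arrays. CHAC1 fell by 2.10 on the log2 scale with the combination (SE 0.29, limma adjusted p = 0.00762), and across 17 alternatives the fold change lay between -2.35 and -1.66 with a limma adjusted p of at most 0.0422. GSK126 gave -0.70 (limma adjusted p = 0.467) and UNC0638 -0.88 (limma adjusted p = 0.379). A_33_P3376965 was well above background on 1 of the 2 DMSO arrays and on no treated array, so it was not tested.

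SESN2 is a stress sensor that restrains mTORC1, and in MM.1S cells it was lower with single agents than with both. Its MM.1S levels were -0.27 and 0.28 with DMSO, -1.03 and -1.01 with GSK126, -1.01 and -1.13 with UNC0638, and -0.42 and -0.59 with both. The log2 fold changes were -1.02, -1.07 and -0.51, and the combination arrays lay between DMSO and the single agents. In RPMI-8226 cells it was -0.68 and -1.02 with DMSO, -1.20 and -1.37 with GSK126, -1.45 and -2.08 with UNC0638, and -1.12 and -1.42 with both. All treated arrays were below DMSO, with UNC0638 lowest at -0.92 (SE 0.25, limma adjusted p = 0.264) and the combination at -0.42 (limma adjusted p = 0.293).

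STC2 and NUPR1 were well above background in RPMI-8226 cells alone. There STC2 was called lower with both inhibitors, and NUPR1 was not called in the fit without the replicate block. STC2, a secreted glycoprotein induced by ATF4, read -1.67 and -2.07 with DMSO, -2.68 and -2.30 with GSK126, -2.32 and -2.34 with UNC0638, and -3.62 and -3.31 with both. It fell by 1.59 on the log2 scale with the combination (SE 0.21, limma adjusted p = 0.00648), with no overlap between the groups, and the fold change was -0.74 with normexp background correction, as its signal is dim. NUPR1, a chromatin-bound stress factor, read -1.95 and -2.15 with DMSO, -0.06 and -1.35 with GSK126, -1.93 and -2.37 with UNC0638, and -0.58 and -1.08 with both. GSK126 and the combination were above DMSO by 1.35 (SE 0.42, limma adjusted p = 0.324) and 1.22 (SE 0.42, limma adjusted p = 0.108), and UNC0638 overlapped it. With the replicate block the combination had a limma adjusted p of 0.0276.

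**Figure D2:**
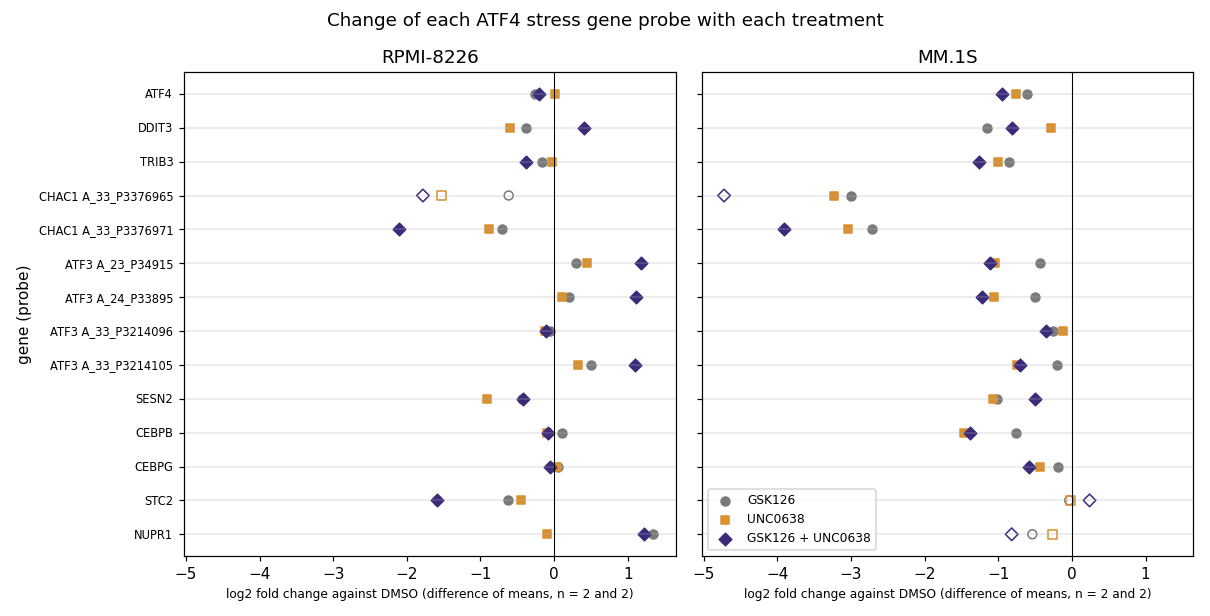
Log2 fold change against DMSO (difference of means of 2 and 2 arrays) of each probe with GSK126 (circle), UNC0638 (square) and both (diamond), in RPMI-8226 (left) and MM.1S (right); open symbols were not kept or had a group with neither array well above background. Almost all MM.1S symbols lie left of 0, with CHAC1 at -3.91 (A_33_P3376971), whereas the RPMI-8226 combination spans -2.10 for CHAC1 to 1.22 for NUPR1.

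The starting levels were also set side by side between the 2 lines. With DMSO, 10 of the 14 probes had both MM.1S arrays above both RPMI-8226 arrays, 2 the reverse (STC2 and NUPR1), and 2 overlapped. The 10 include every probe of ATF3 and of CHAC1, so they are fewer genes than probes. The overlapping pair was ATF4, at 7.58 ± 0.02 in RPMI-8226 and 7.54 ± 0.14 in MM.1S cells (SD, n = 2), and TRIB3, at 4.99 ± 0.09 and 4.90 ± 0.29. CHAC1 (A_33_P3376971) stood 2.23 higher in MM.1S cells on the log2 scale, at 2.82 ± 0.37 against 0.59 ± 0.36 (SD, n = 2), DDIT3 1.44 higher and ATF3 (A_23_P34915) 1.74 higher. ATF3 in MM.1S cells given both inhibitors, at 2.82 ± 0.26 (SD, n = 2), was still above its DMSO level in RPMI-8226 cells, at 2.20 ± 0.38. These differences carry no test. The share of all probes separated between the lines in this way is not given here, so nothing is read from the counts.

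The genes most like CHAC1 were ranked by Pearson r with A_33_P3376971 over the 16 arrays, each centred on its line. Among 14839 other symbols the first 5 were HAX1 (r = 0.963), ASS1 (r = 0.958), SLC3A2 (r = 0.957), EIF4EBP1 (r = 0.954) and PSAT1 (r = 0.953). Of these, ASS1 makes argininosuccinate from citrulline and aspartate, SLC3A2 is the heavy chain of amino acid exchangers, EIF4EBP1 restrains cap-dependent translation and PSAT1 makes serine. The arrays share the treatments, so r says how alike the profiles are and carries no p. TRIB3 ranked 10 (r = 0.944), ATF4 210 (r = 0.879), CEBPB 757 (r = 0.833) and CEBPG 1291 (r = 0.800), while DDIT3 ranked 7578 (r = 0.275). Within RPMI-8226 cells the r of ATF3 (A_23_P34915) with CHAC1 was -0.61 and that of DDIT3 -0.44, and within MM.1S cells they were 0.87 and 0.61.

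**Figure D3:**
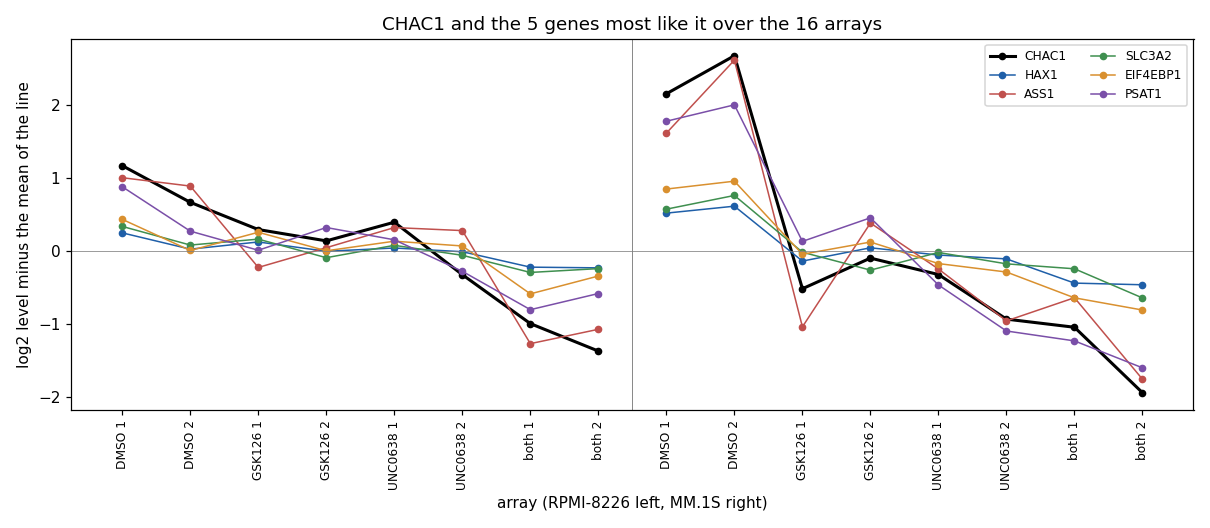
Log2 level minus the mean of the line for CHAC1 (A_33_P3376971, black) and the 5 genes with the highest Pearson r to it, over the 8 RPMI-8226 arrays (left) and the 8 MM.1S arrays (right); each point is 1 array, and lines only join points of a gene. All 5 lie below DMSO on both combination arrays of each line, as CHAC1 does, HAX1 and SLC3A2 by least, with a combination change in MM.1S cells of -1.02 and -1.11 against -3.91 for CHAC1.

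Beyond the 10 genes, 125 other genes of the pathway were listed in 8 groups, of which 124 had a probe, and each was read at its probe of highest mean level in the line. With the combination, limma called 61 lower and 16 higher of 117 tested in MM.1S cells, where 32.1% and 23.2% of 17014 genes were called, and 14 lower and 6 higher of 118 in RPMI-8226 cells, where 4.73% and 8.22% of 16062 genes were. UNC0638 alone gave 52 lower and 8 higher in MM.1S cells, beside 16.5% and 13.9% of all genes, and GSK126 gave 35 and 5, beside 2.37% and 5.88%. In RPMI-8226 cells GSK126 gave 0 lower and 1 higher, and UNC0638 0 of either, with 8 lower and 4 higher at an unadjusted p under 0.05. Over all genes GSK126 gave 0.056% lower and 0.66% higher there, and UNC0638 0.0747% and 0.647%. With the replicate block, the RPMI-8226 combination gave 23 lower and 11 higher. The number of those RPMI-8226 falls dropped when any 1 array of the line was left out, also an array outside the 2 groups compared. Such a fit leaves 1 array in a group, and the cause of the drop was not tested. The number of rises dropped or stayed the same. The 40 MM.1S calls with GSK126 became 0 without DMSO replicate 2 or GSK126 replicate 1 and at most 23 without any other array, and the 60 with UNC0638 became 36 without UNC0638 replicate 2. The 1 RPMI-8226 call with GSK126 was lost without any 1 array.

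All genes called in the lists of amino acid supply and tRNA charging were called lower with the combination, in both lines. The lists were chosen with earlier results of these data known, so their counts and p-values are a description and no independent test. In MM.1S cells 17 of 20 supply genes (amino acid transporters and enzymes such as those making serine, proline and asparagine) fell with both inhibitors, beside 32.1% of all genes. Their median log2 fold change was -2.05 against -0.11 for all genes. SLC6A9, a glycine transporter, went from 3.07 and 3.61 to -0.53 and -1.44, a fall of 4.32 on the log2 scale (SE 0.44, limma adjusted p = 0.000677). PHGDH, the first enzyme of serine synthesis, fell by 3.17 (SE 0.30, limma adjusted p = 0.000579). All 13 genes of the synthetase list, which includes the tRNA exporter XPOT, fell, at a median of -1.20, led by GARS at -1.97 (SE 0.17, limma adjusted p = 0.000476) and YARS at -1.80 (SE 0.15, limma adjusted p = 0.000386), which charge glycine and tyrosine.

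The same 2 lists held 11 of the 14 RPMI-8226 falls. There 5 of 20 supply genes and 6 of 13 synthetase genes fell, beside 4.73% of all genes. The medians were -0.55 and -0.60 against -0.10 for all genes. PSAT1 (A_23_P259692) went from 4.26 and 3.89 to 2.71 and 3.04, a fall of 1.20 on the log2 scale (SE 0.19, limma adjusted p = 0.0127). ASNS, asparagine synthetase, fell by 1.16 (SE 0.17, limma adjusted p = 0.00994), YARS by 1.02 (SE 0.19, limma adjusted p = 0.0224) and GARS by 0.95 (SE 0.19, limma adjusted p = 0.0238). These 4 calls were lost under 3, 2, 5 and 7 of 17 alternatives, each time including the fits without combination replicate 1 and without DMSO replicate 1. The highest limma adjusted p over the 17 was 0.0784, 0.0609, 0.0909 and 0.133.

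**Figure D4:**
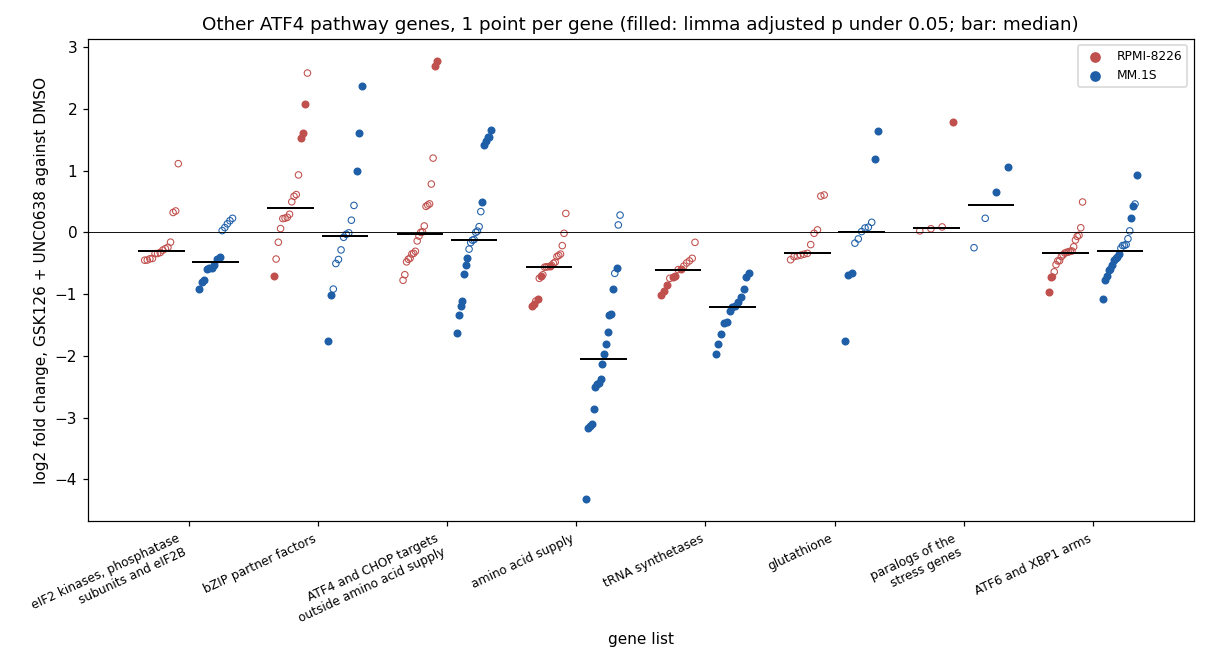
Log2 fold change with GSK126 + UNC0638 against DMSO of the other ATF4 pathway genes by list, 1 point per gene, RPMI-8226 in red and MM.1S in blue; filled points had a limma adjusted p under 0.05 and bars are medians. Amino acid supply genes lie mostly, and tRNA synthetase genes all, below 0 in both lines, with medians of -2.05 and -1.20 in MM.1S cells and -0.55 and -0.60 in RPMI-8226 cells.

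Upstream of ATF4, of 14 genes for the eIF2 kinases and GCN2 cofactors, eIF2 and its exchange factor, and the phosphatase subunits, 9 fell in MM.1S cells, beside 32.1% of all genes. In the RPMI-8226 line 0 were called, beside 4.73% lower and 8.22% higher of all genes, and 3 lower and 2 higher had an unadjusted p under 0.05. The exchange factor subunit EIF2B2 fell by 0.81 on the log2 scale in MM.1S cells (SE 0.07, limma adjusted p = 0.000525) and PPP1R15B, which guides phosphatase to eIF2, by 0.91 (SE 0.10, limma adjusted p = 0.000952). Among the 4 kinases, which were picked out after their values were seen, EIF2AK1 was called at -0.39 in MM.1S cells (SE 0.10, limma adjusted p = 0.0157). There EIF2AK3 (PERK) differed by 0.03 (SE 0.17, limma adjusted p = 0.891), EIF2AK4 (GCN2) by 0.08 (SE 0.09, limma adjusted p = 0.469) and EIF2AK2 (PKR) by 0.19 (limma adjusted p = 0.132). The array does not measure phosphorylation of eIF2.

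Of 21 targets of ATF4 and CHOP outside amino acid supply, 7 were called lower and 6 higher in MM.1S cells, shares near the 32.1% and 23.2% of all genes. EIF4EBP1 fell by 1.63 on the log2 scale (SE 0.11, limma adjusted p = 0.00024) and VEGFA, the vascular growth factor, by 1.33 (SE 0.16, limma adjusted p = 0.00107). KLHL24 rose by 1.66 (SE 0.21, limma adjusted p = 0.00133) and TXNIP, which binds thioredoxin, by 1.55 (SE 0.31, limma adjusted p = 0.00764). In RPMI-8226 cells 0 of 20 fell (4 at an unadjusted p under 0.05) and 2 rose, beside 4.73% and 8.22% of all genes. GDF15, a secreted stress cytokine, went from -2.83 and -2.95 to 0.23 and -0.45, a rise of 2.78 (SE 0.29, limma adjusted p = 0.00276), and GABARAPL1, an autophagy gene, rose by 2.70 (SE 0.46, limma adjusted p = 0.0155), a call lost under 3 of 17 alternatives, including without DMSO replicate 1 and without combination replicate 1 (highest limma adjusted p = 0.0712).

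Of 16 other bZIP factors, the family with which ATF4 and CHOP can pair, 3 were called higher and 1 lower in RPMI-8226 cells, where 8.22% and 4.73% of all genes were. JUN rose by 2.08 on the log2 scale (SE 0.28, limma adjusted p = 0.00709) and BATF by 1.62 (SE 0.23, limma adjusted p = 0.00773), both lost without combination replicate 1 (limma adjusted p = 0.0519 and 0.0587), while ATF6 fell by 0.70 (SE 0.14, limma adjusted p = 0.0238), lost under 8 of 17 alternatives. In MM.1S cells 2 fell and 3 rose of 14, beside 32.1% and 23.2% of all genes. JUND fell by 1.02 (SE 0.12, limma adjusted p = 0.000991) and JDP2 by 1.76 (SE 0.38, limma adjusted p = 0.00938), the latter lost without combination replicate 2 (limma adjusted p = 0.0536). FOSB rose by 1.62 (SE 0.49, limma adjusted p = 0.032), lost without combination replicate 1 or DMSO replicate 2. BATF2 was at least 1.54-fold higher and not well above background with DMSO. It passed the filter only through treated arrays, so its place among the 3 is no test and its p is not given. That call was also lost without DMSO replicate 2 or either combination array.

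Among relatives of the members, CHAC2 fell and SESN1 rose. CHAC2, the other glutathione-cleaving enzyme, fell by 1.75 on the log2 scale in MM.1S cells (SE 0.17, limma adjusted p = 0.000618). Of 11 glutathione genes 3 fell and 2 rose there, shares not above the 32.1% and 23.2% of all genes. In RPMI-8226 cells 0 were called (2 lower and 1 higher at an unadjusted p under 0.05), beside 4.73% lower and 8.22% higher of all genes. GGCT, which releases 5-oxoproline from gamma-glutamyl compounds, fell in MM.1S cells by 0.70 (SE 0.13, limma adjusted p = 0.00634), but by 0.22 after quantile normalization (limma adjusted p = 0.243). GGT7 and OPLAH rose in MM.1S cells by 1.64 (SE 0.17, limma adjusted p = 0.000765) and 1.20 (SE 0.11, limma adjusted p = 0.00056). SESN1, the sestrin next to SESN2, rose in MM.1S cells by 1.06 (SE 0.13, limma adjusted p = 0.00119) and in RPMI-8226 cells by 1.79 (SE 0.29, limma adjusted p = 0.014), the latter lost without either DMSO array or combination replicate 2. SESN3 rose in MM.1S cells by 0.66 (SE 0.21, limma adjusted p = 0.0405), a call lost under 8 of 17 alternatives.

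The neighbouring arms of the unfolded protein response, run by ATF6 and XBP1, gave 10 lower and 3 higher of 20 genes in MM.1S cells (32.1% and 23.2% of all genes). In RPMI-8226 cells they gave 2 lower and 0 higher of 20 (4.73% and 8.22% of all genes). SEL1L, a part of the degradation complex of the endoplasmic reticulum, fell by 1.08 on the log2 scale in MM.1S cells (SE 0.11, limma adjusted p = 0.000674) and the chaperone calreticulin (CALR) by 0.77 (SE 0.09, limma adjusted p = 0.00091). DNAJB9 rose by 0.94 (SE 0.11, limma adjusted p = 0.00102) and ATF6B by 0.43 (SE 0.10, limma adjusted p = 0.0113), the latter lost without DMSO replicate 1 (limma adjusted p = 0.0597). In RPMI-8226 cells ERN1, the IRE1 sensor, fell by 0.96 (SE 0.15, limma adjusted p = 0.0106; lost with normexp and without DMSO replicate 1 or combination replicate 1) and the chaperone HSP90B1 by 0.72 (SE 0.15, limma adjusted p = 0.0309), which was lost under 9 of 17 alternatives.

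The combination change was also compared between the lines, with 116 of the listed genes tested in 1 limma fit over the 16 arrays. It called 38, beside 13.1% of all probes. For 33 of the 38 the change was lower in MM.1S cells, which need not be a fall there, and for 5 it was lower in RPMI-8226 cells. The 38 held 14 of 20 supply genes and 6 of 13 synthetase genes, all with the more negative change in MM.1S cells. The count was 20 without MM.1S DMSO replicate 2 or combination replicate 2, and 24 without MM.1S combination replicate 1 or RPMI-8226 combination replicate 2. For SLC6A9 the log2 fold changes were -1.07 in RPMI-8226 and -4.32 in MM.1S, a difference of 3.25 (SE 0.51, limma adjusted p = 0.00356). For the 10 members this difference was not tested, and their values are given side by side above.

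**Figure D5:**
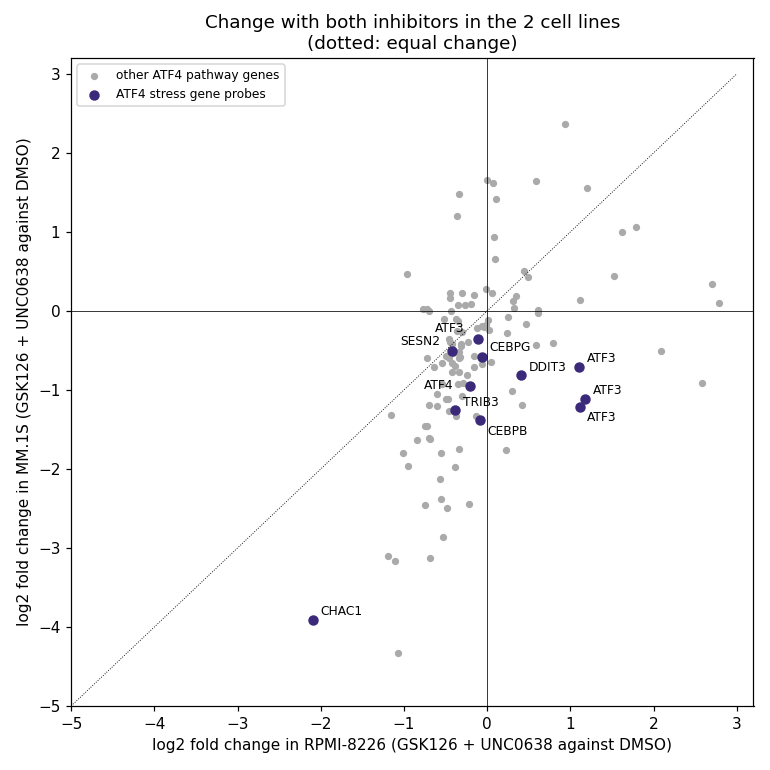
Log2 fold change with GSK126 + UNC0638 against DMSO in RPMI-8226 (horizontal) and MM.1S (vertical), for the member probes kept in both lines (dark) and the other ATF4 pathway genes (grey); the dotted line marks equal change. All dark points lie below the dotted line, with CHAC1 at -2.10 and -3.91, and the 3 ATF3 probes near 1.1 in RPMI-8226 cells lie below 0 in MM.1S cells.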

How the data were processed

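RNA of the 16 samples was measured on Agilent 1-colour arrays. The authors deposited spot intensity values, background-subtracted by Agilent Feature Extraction (version 10.7, from the submitters' processing notes) and not normalized between arrays, together with flags for background and saturation, which are not intensities. The deposited series table held the same intensities rounded. The study imported its arrays into Gene Spring GX, where it counted changes by a fold threshold; a test is not given in the sources used here.

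Control spots and outlier spots were removed. Each log2 intensity was set against the 75th percentile on the same array, with a mean taken over replicate spots. The filter retained probes that passed the well-above-background flag on 2 of 2 arrays for any treatment of the line (23199 in RPMI-8226, 25102 in MM.1S, 21370 in both). Linear models from limma 3.58.1 in R 4.3.3 used the 8 arrays of a line, or all 16 for differences between lines, with Benjamini-Hochberg adjustment over all probes kept and a threshold of 0.05. Such p-values set a difference against a variance estimated over those arrays and moderated across probes, and they speak only for these samples. A bound ("at least") divides the brighter group by the dim spot or, if higher, by the lowest signal on its array that passed that flag.

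The members and lists were chosen with earlier results of these data known. Named genes were the 10 members with every probe, for each list the 2 largest falls and 2 largest rises called with the combination in a line, and the 5 symbols most like CHAC1. Same-numbered RPMI-8226 arrays deviated together in 6 of 6 pairs of groups (r between 0.254 and 0.415), so their numbers were taken to pair them. In both lines the number also went with the row on the slide. In MM.1S cells 5 of 6 pairs exceeded 0.1 (lowest 0.0847), so the numbers were not taken to pair the arrays there. In both lines the p-values come from fits without the replicate number unless the block is named. The fits were tested on simulated data. Alternatives were quantile normalization, a percentile over probes detected on all 16 arrays, normexp (offset 50), no filter or a stricter one, the series table, a replicate block, leaving out arrays singly, a trended prior, only the groups compared, and averaging all probes per gene. Promoter windows came from RefSeq (GRCh38.p14), and probe positions are on GRCh37.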

Additional observations from a re-analysis of the deposited data

Results flagged for a closer look

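The combination change differed between the lines by the limma test for 15 genes named above, given here as RPMI-8226 minus MM.1S on the log2 scale. Genes with the lower change in MM.1S cells were SLC6A9 (3.25, limma adjusted p = 0.00356), GDF15 (2.69, limma adjusted p = 0.00612), JUN (2.59, limma adjusted p = 0.00306), GABARAPL1 (2.36, limma adjusted p = 0.0164), JDP2 (1.98, limma adjusted p = 0.0132) and PSAT1 (1.91, limma adjusted p = 0.00437). The same held for CHAC2 (1.41, limma adjusted p = 0.00418), JUND (1.31, limma adjusted p = 0.00568), GARS (1.02, limma adjusted p = 0.0266), EIF4EBP1 (0.94, limma adjusted p = 0.0207), SEL1L (0.77, limma adjusted p = 0.031) and EIF2B2 (0.56, limma adjusted p = 0.0348). It was the other way round for OPLAH (-1.56, limma adjusted p = 0.00828), ERN1 (-1.42, limma adjusted p = 0.0051) and ATF6 (-0.69, limma adjusted p = 0.0111). EIF2B2 lost this call under 13 of 24 alternatives, SEL1L under 8, EIF4EBP1 and GARS under 6 each, and GABARAPL1 and JDP2 under 1 each.

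Among the members, some probes had every treated array above DMSO in RPMI-8226 cells and below it in MM.1S cells, a difference that was not tested. With the combination, RPMI-8226 minus MM.1S was 2.29 for ATF3 probe A_23_P34915, 2.33 for A_24_P33895 and 1.81 for A_33_P3214105. With GSK126 it was 0.70 for ATF3 probe A_24_P33895 and 0.86 for CEBPB, and with UNC0638 it was 1.08 for ATF3 probe A_33_P3214105. The RPMI-8226 log2 fold changes behind these single-agent values were small, at 0.20, 0.10 and 0.33 in that order. None passed the test (limma adjusted p = 0.870, 0.821 and 0.853).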

How the results depend on the processing

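CHAC1 and STC2 in RPMI-8226 cells stayed called by limma under all 17 alternatives, and the 36 MM.1S changes of members kept their sign in 609 of 609 recomputations. Of 53 named changes called, 30 were called under every alternative run. Counts of other pathway genes moved more. The 14 RPMI-8226 falls with the combination became 9 with quantile normalization, 8 with the percentile over detected probes, 24 with normexp, 3 with no filter, 27 with the trended prior and 2 with only the groups compared, and 0 to 12 with 1 array left out. With the replicate block there were 23 falls and 11 rises against 14 and 6, 2 calls with GSK126 against 1, and 1 with UNC0638 against 0; the rises were 2 to 6 with 1 array left out. The 1 RPMI-8226 call with GSK126 became 0 with quantile normalization, the detected percentile, normexp, no filter or only the groups compared, and 0 to 0 with 1 array left out. In MM.1S cells the 40 calls with GSK126 became 2 with no filter, 63 with the trended prior, 1 with only the groups compared and 0 to 23 with 1 array left out, and the 60 with UNC0638 became 36 to 58. The 38 line differences became 23 with no filter and 20 to 44 with 1 array left out. The block gave 64 falls, 16 rises and 39 and 67 single-agent calls in MM.1S cells, and 54 line differences. The cause of these moves was not tested. The slide could not be fitted as a block, since each line had its own.

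Dim spots such as STC2 and the CHAC1 probe A_33_P3376965 are limited by their signal over background, and 2 arrays per group limit every comparison.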

Other observations

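Pro-apoptotic targets of ATF4 and CHOP, picked out after their values were seen, went both ways in MM.1S cells with both inhibitors. TNFRSF10B, a death receptor, read 3.61 and 3.58 against 2.26 and 2.10 with DMSO and rose by 1.42 on the log2 scale (limma adjusted p = 0.000216), with no overlap between the groups. In RPMI-8226 cells it differed by 0.10 (limma adjusted p = 0.612), and the lines differed by -1.31 (limma adjusted p = 0.000332). BBC3, which encodes the BH3 protein PUMA, read 3.12 and 3.10 against 1.45 and 1.82 in MM.1S cells and rose by 1.47 (limma adjusted p = 0.000494). In RPMI-8226 cells it differed by -0.34 (limma adjusted p = 0.584), and the lines differed by -1.81 (limma adjusted p = 0.0231). BCL2L11, which encodes BIM, rose in MM.1S cells by 0.50 (limma adjusted p = 0.0222). In RPMI-8226 cells it differed by 0.44 (limma adjusted p = 0.112), and the lines differed by -0.06 (limma adjusted p = 0.872). PMAIP1, which encodes the BH3 protein NOXA, went the other way there, at -0.31 and -0.10 against 0.90 and 1.09, and fell by 1.20 (limma adjusted p = 0.00952). In RPMI-8226 cells PMAIP1 differed by 0.42 (limma adjusted p = 0.0964), and the lines differed by 1.62 (limma adjusted p = 0.00712).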
